A study of Danio rerio with 6 samples.

Results

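The Hox genes were followed in the thymus of adult zebrafish with and without foxn1, the gene of a transcription factor on which thymic epithelial cells depend. Members were all gene ids of the count tables whose symbol is hox, a cluster letter from a to d and a paralogue number, and 48 of 32520 ids met this rule. Of these, 31 passed the filter of more than 5 counts in at least 3 libraries and were tested. The tables label many zebrafish genes with the human symbol. For 15 of the 48 ids the symbol was the zebrafish name, and for 23 the name was settled because a single zebrafish gene of that letter and number was left in the RefSeq table. The other 10 ids form 5 pairs (HOXA11, HOXB5, HOXC6, HOXC12 and HOXC13) whose copies could not be told apart and are given here by symbol and Ensembl id. The gene hoxa4a, which the RefSeq table names, was not analysed here.

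Whole thymi of fish 3 months of age were compared between foxn1+/+ and foxn1-/-, with 3 libraries of polyA RNA per genotype and the RNA of 3 fish in every library. The mutant line carries an internal deletion of foxn1 in every tissue, and the sex of the fish was not specified. For thymus RNA of its RT-PCR assays the study names an ikzf1:EGFP reporter background, which the labels of these libraries do not mention. Since every library is a pool, the spread between libraries is a spread between pools. Libraries held 31989159 to 42198532 counts.

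Hox genes encode homeodomain transcription factors that lie side by side in clusters, and their order in a cluster, given by the paralogue number, matches the order of their expression domains from head to tail. Low numbers mark the hindbrain and the pharyngeal arches, middle numbers the neck and trunk, and high numbers the tail, the distal fins or limbs and the urogenital tract. The thymus arises in the pharynx, and in mouse the group of Hoxa3 is needed for the third pharyngeal pouch to form it. An additional genome duplication in the ancestry of teleosts left zebrafish with an a and a b copy of several clusters. Connective tissue, nerves and bone keep part of this positional code in adult life.

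The label of the tissue was checked against marker lists. In the foxn1+/+ libraries the 13 thymocyte markers took 1.08 to 1.32% of all counts, and in the foxn1-/- libraries 0.0224 to 0.0580%, with 13 of 13 lower. The defining epithelial gene psmb11b, the catalytic subunit of the cortical thymoproteasome, had 4019, 2638 and 2407 counts in the foxn1+/+ libraries and 1, 0 and 0 in the mutants. The list of 10 thymic epithelial markers as a whole was split, with 4 higher, 5 lower and a median log2 change of -0.33, and krt5, krt8, CXCL12 and dll4 were the 4 that were higher. foxn1 itself had 495, 375 and 349 counts against 114, 129 and 66, a log2 change of -1.79 (SE 0.263, edgeR adjusted p = 0.000792), and the counts do not say whether the reads lie outside the deletion. Markers of connective tissue, skeletal muscle, cartilage and bone, and neurons took a larger share of counts in the mutants. Whether this RNA came from inside the thymus or from tissue around it was not tested. The study counts muscle among the mimetic cell signatures that were enriched in the mutant zebrafish thymus. The 14 connective tissue markers took 0.170 to 0.793% of counts in foxn1+/+ and 1.5 to 2.23% in foxn1-/-, the 13 skeletal muscle markers 0.809 to 1.81% and 8.25 to 11.1%, the 14 cartilage and bone markers 0.0443 to 0.270% and 0.339 to 0.538%, and the 13 markers of neurons and hindbrain 0.0161 to 0.0301% and 0.0404 to 0.0870%. The connective tissue and muscle lists were higher for every marker, the cartilage and bone list for 13 of 14 and the neuron list for 11 of 13. Over all genes tested 36.2% were higher and 35.9% were lower. TCF21 of the connective tissue list, with 3, 1 and 5 counts against 18, 17 and 17, passed the filter only through the mutants and psmb11b only through foxn1+/+, so both had to differ. In bulk libraries, fewer cells of a type and less RNA per cell cannot be told apart.

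Hox genes of low and middle paralogue number were mostly higher in the foxn1-/- thymus, and those of high number mostly were not. Of the 31 ids tested, 19 were higher in the mutants (61.3%), 4 were lower (12.9%) and 8 were not called by edgeR's quasi-likelihood test at an adjusted p under 0.05. Over all 23805 genes tested, 36.2% were higher, 35.9% were lower and 72.1% were called in either direction, compared with 74.2% of the Hox ids. The same 19 and 4 ids had no overlap between the genotypes in CPM (counts divided by the normalized library size and multiplied by 1e+06), a state that 37.8% of all genes reached with the mutants higher and 39.3% with the mutants lower. The median log2 change of the tested Hox ids was 1.84, with a range from -5.27 to 3.85, while the median of all genes was 0.02. Since the filter keeps an id that is high in a single genotype, these counts describe the ids that passed and not all 48. Among the called ids hoxc1a and HOXC6 (ENSDARG00000070343) passed only through the mutants and hoxb8b only through foxn1+/+, so they had to differ and are described by their counts alone. They remain in the tallies and medians here and below, and the range end of -5.27 is that of hoxb8b. With any 1 foxn1+/+ library left out 2 ids were lower, since hoxb8b then missed the filter and hoxa13b the threshold.

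By paralogue group the changes fell into an anterior and central block and a posterior remainder. In groups 1 to 3, 8 of 9 tested ids were higher and none was lower, with a median log2 change of 2.56. In groups 4 to 8, 10 of 13 were higher and 2 were lower, with a median of 2.74. These tallies include ids that had to differ, hoxc1a in groups 1 to 3 and HOXC6 (ENSDARG00000070343) and hoxb8b in groups 4 to 8. In the RefSeq table hoxb4a, hoxc4a, hoxd4a, hoxa5a, hoxb5a, hoxc5a, hoxb6a and hoxc6a overlap genes of group 3. Whether their changes are separate from those of group 3 was not tested. In groups 9 to 13, 1 of 9 was higher and 2 were lower, with a median of 0.35. Of all genes tested, 36.2% were higher and 35.9% were lower. Every tested id of groups 2, 3, 4 and 7 was higher, whereas groups 10, 11, 12 and 13 held no id that was. The posterior side depends on foxn1+/+ replicate 2, without which hoxc9a and hoxd10a were also higher.

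**Figure D1:**
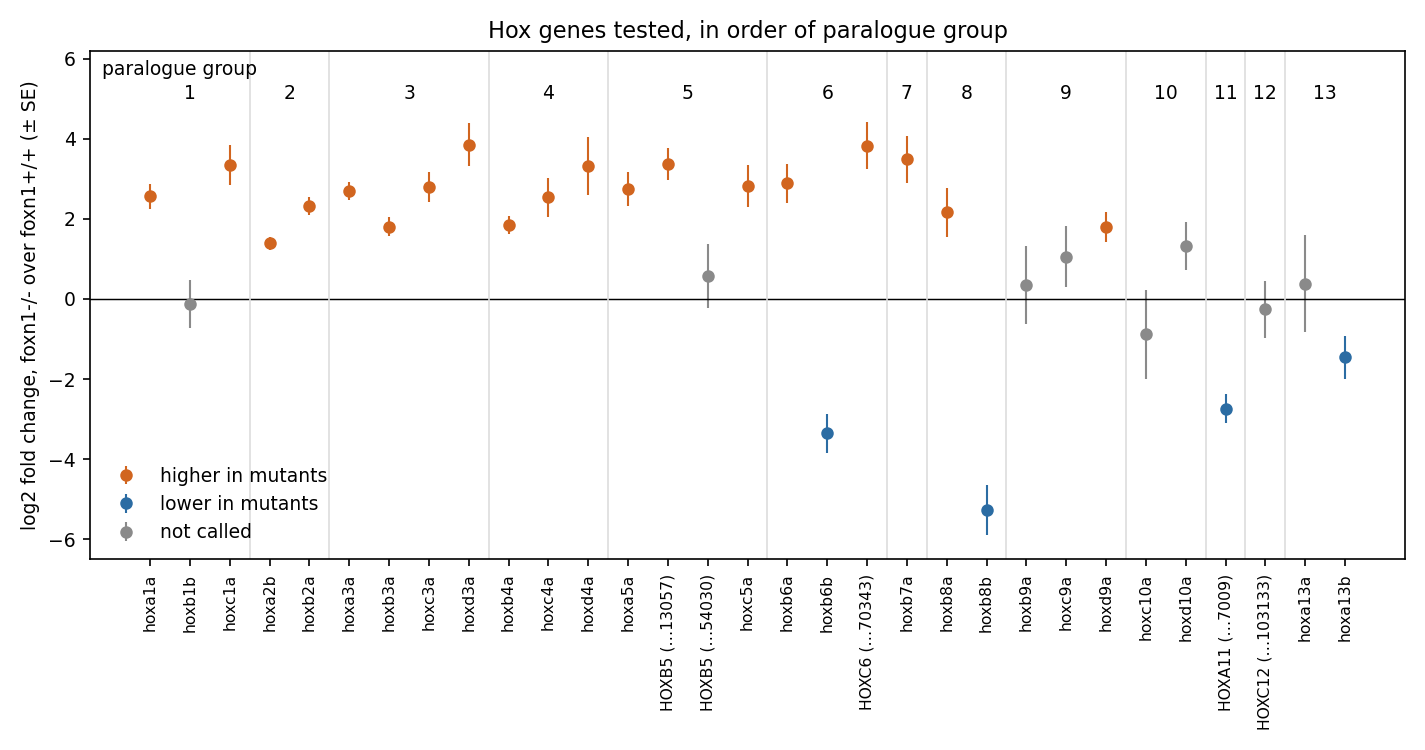
Log2 fold change of foxn1-/- over foxn1+/+ (y axis) for the 31 tested Hox ids, in order of paralogue group (x axis). Points are edgeR estimates and bars are ± SE, and colour gives the call: 18 of the 19 ids that were higher lie in groups 1 to 8, while hoxb6b, hoxb8b, HOXA11 (ENSDARG00000007009) and hoxa13b were lower.

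Detection followed the same axis. The filter was passed by 22 of 25 ids (88%) of groups 1 to 8 and by 9 of 23 (39.1%) of groups 9 to 13. Every one of the 48 ids had a count in at least 1 library, and 31 had counts in every library. The highest count of any untested id was 21, reached by hoxc11a in foxn1-/- replicate 3 and by hoxc11b in foxn1+/+ replicate 2. Just inside the filter, with 3 libraries over 5 counts, were hoxc10a, hoxa13a, hoxc1a, HOXC6 (ENSDARG00000070343) and hoxb8b, with 28, 35, 63, 86 and 244 counts in all. Just outside, with 2 libraries, were 8 ids with 25 to 45 counts. The ids hoxb13a and hoxd13a had no count in any mutant library, where 3 counts would be 0.0802 to 0.0874 CPM, and hoxb1a had none in foxn1+/+.

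Among the ids of group 1, which pattern the hindbrain, hoxa1a had 10, 6 and 8 counts in the foxn1+/+ libraries and 35, 51 and 41 in the foxn1-/- libraries. Its level rose from 0.194 ± 0.0297 to 1.16 ± 0.186 CPM (SD, n = 3 libraries each), a log2 change of 2.56 (SE 0.309, edgeR adjusted p = 0.000315). Each mutant library lay above each foxn1+/+ library. hoxc1a was at the limit of detection in foxn1+/+, with 2 counts in every library, against 20, 26 and 11 in the mutants. The summed counts, 6 against 57, gave a 10.8-fold ratio after scaling for depth, with an exact interval of 4.65 to 30.5 (95%, counting error only). hoxb1b did not follow, with 39, 23 and 18 counts against 12, 43 and 9 (log2 change -0.12, edgeR adjusted p = 0.860).

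Groups 2 and 3 held most of the Hox counts. hoxa2b, the zebrafish member of the Hoxa2 group that gives the second pharyngeal arch its identity, had 236, 222 and 185 counts in foxn1+/+ and 540, 432 and 520 in foxn1-/-. This was a 2.62-fold rise (log2 change 1.39, SE 0.165, edgeR adjusted p = 0.000297), the smallest among the Hox ids that were higher. hoxb3a had the most Hox counts over the 6 libraries together, 513, 333 and 325 against 1001, 1691 and 900, and its level rose 3.50-fold from 9.39 ± 1.1 to 32.9 ± 11.2 CPM (SD, n = 3 each; edgeR adjusted p = 0.000594). Mouse Hoxb3 and Hoxd3 act with Hoxa3 in placing the thymus in the neck. The genotypes did not overlap, although foxn1-/- replicate 2 stood above the other mutants.

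hoxd3a showed the largest rise among the Hox ids tested, from 9, 13 and 21 counts to 142, 309 and 119, a 14.4-fold change (log2 3.85, SE 0.533, edgeR adjusted p = 0.000629). Named here for its role and not by the rule for named genes, hoxa3a, of the gene group that mouse thymus formation requires, had 274, 199 and 203 counts in foxn1+/+ and 1360, 1597 and 890 in foxn1-/-. It rose 6.49-fold, from 5.46 ± 0.208 to 35.5 ± 10.2 CPM (SD, n = 3 each), with a log2 change of 2.70 (SE 0.233) in the edgeR fit. All 4 ids of group 3 were thus higher, with log2 changes from 1.81 to 3.85, and in none did the genotypes overlap. In the mutant libraries taken alone hoxa3a had more counts than hoxb3a. In the RefSeq annotation the spans of hoxa3a, hoxb1b, hoxb3a, hoxc3a and hoxd3a overlap other Hox genes of their clusters, so their counts and those of the overlapped neighbours are uncertain.

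In the central groups the pattern continued with fewer counts. hoxb4a, whose mouse homologue expands blood stem cells when forced on, had 166, 119 and 140 counts against 408, 590 and 351, a 3.59-fold rise (log2 change 1.84, SE 0.219, edgeR adjusted p = 0.000297). The HOXB5 id ENSDARG00000013057 had 38, 28 and 18 counts against 132, 343 and 294, a 10.3-fold rise (log2 3.37, SE 0.393, edgeR adjusted p = 0.000277). Both genes were separated between the genotypes in every library.

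The HOXB5 pair did not move as one. The other id, ENSDARG00000054030, had 74, 59 and 74 counts in foxn1+/+ and 9, 180 and 92 in foxn1-/-, and it was not called (log2 change 0.58, SE 0.796, edgeR adjusted p = 0.533). Its high value was in foxn1-/- replicate 2 and its low value in foxn1-/- replicate 1, without which it was called, and it was named after its values were seen. The HOXC6 pair was also uneven. ENSDARG00000070343 had 1, 4 and 1 counts against 33, 19 and 28, while ENSDARG00000101954, with 6, 2 and 6 against 4, 3 and 4, did not pass the filter.

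hoxb7a, the lone id of group 7, rose 11.2-fold, from 7, 22 and 4 counts to 87, 127 and 125 (log2 change 3.48, SE 0.584, edgeR adjusted p = 0.00151). Its highest foxn1+/+ library, replicate 2, was still below each mutant, and without it the log2 change was 4.53. A further 4 central ids that were higher, hoxc4a, hoxd4a, hoxa5a and hoxc5a, had log2 changes between 2.54 and 3.32.

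In groups 6 and 8 the b copies of the duplicated B cluster went the other way. hoxb6a had 19, 9 and 15 counts in foxn1+/+ and 39, 127 and 120 in foxn1-/-, a rise of 2.89 on the log2 scale (SE 0.489, edgeR adjusted p = 0.00150). hoxb6b had 86, 44 and 50 counts in foxn1+/+ and 2, 9 and 4 in foxn1-/-, a log2 change of -3.36 (SE 0.484, edgeR adjusted p = 0.000715) that became -4.00 without foxn1-/- replicate 2. In each foxn1+/+ library hoxb6b had more counts than hoxb6a, and in each mutant fewer.

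Group 8 behaved alike. hoxb8a, whose mouse homologue holds myeloid progenitors in an immature state when overexpressed, had 9, 33 and 7 counts against 76, 67 and 58 (log2 change 2.17, SE 0.608, edgeR adjusted p = 0.0149). Without foxn1+/+ replicate 2 its log2 change was 3.25. hoxb8b had 112, 53 and 74 counts in foxn1+/+ and 3, 0 and 2 in foxn1-/-. The summed counts of 239 and 5 gave a level 42.2-fold lower, with an exact interval of 17.8 to 131 (95%, counting error only).

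The duplicated copies can be read as a share, which no scaling of the libraries alters. hoxb6a made up 18.1, 17.0 and 23.1% of the hoxb6a and hoxb6b counts in foxn1+/+ and 95.1, 93.4 and 96.8% in foxn1-/-. Exact binomial intervals (95%) of the single libraries lay between 8.07 and 35.2% in foxn1+/+ and between 83.5 and 99.4% in foxn1-/-, and they cover counting error only, while libraries of a genotype differed beyond sampling noise. hoxb8a made up 7.44, 38.4 and 8.64% of the hoxb8a and hoxb8b counts in foxn1+/+ and 96.2, 100 and 96.7% in foxn1-/-. The high foxn1+/+ value came from replicate 2. These shares were chosen for description after the counts of the 4 genes were seen. In the RefSeq table hoxb6a overlaps hoxb3a and hoxb6b overlaps hoxb1b, so the hoxb6a and hoxb6b counts are uncertain.

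**Figure D2:**
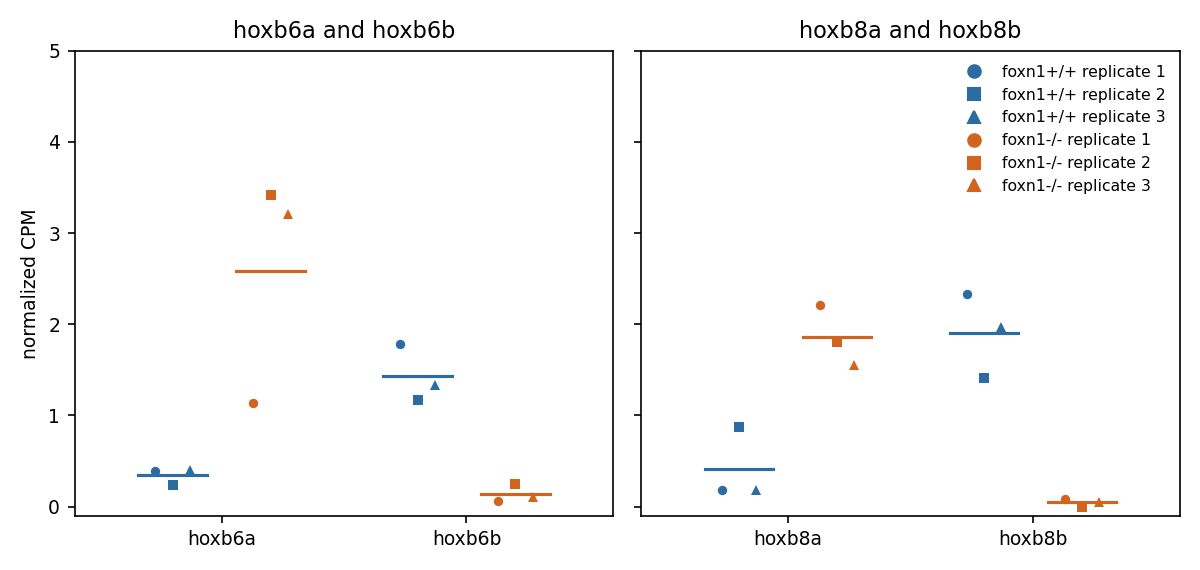
Normalized CPM (y axis) of the a and b copies of hoxb6 and hoxb8 in each of the 6 libraries, with blue for foxn1+/+, orange for foxn1-/-, symbols for replicates and bars for means of 3. hoxb6a and hoxb8a were higher in the mutants (adjusted p of 0.00150 and 0.0149), and hoxb6b and hoxb8b lower, with at most 9 counts in any mutant library.

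Among the ids that could be placed in a cluster the split was between Ba and Bb. Of the 7 tested ids of cluster Ba, 6 were higher and 1 was not called. Of the 3 tested ids placed in cluster Bb, 2 were lower and hoxb1b was not called. Of those 2, hoxb8b passed the filter only through foxn1+/+. The 2 HOXB5 ids, whose a and b copies could not be told apart, are in neither cluster here. Of them 1 was higher and 1 was not called. Summed over the placed ids, cluster Bb stood at 3.97 ± 0.882 CPM in foxn1+/+ and 0.765 ± 0.551 CPM in foxn1-/- (SD, n = 3 each), without overlap. This sum lacks the HOXB5 copy of the cluster. ENSDARG00000054030 had a mean of 1.69 CPM in foxn1+/+ and 2.52 CPM in foxn1-/-, and ENSDARG00000013057 0.671 and 6.98 CPM. Whether the whole cluster was lower is therefore not known. The ratio of the placed ids, 0.193, became 0.113 without foxn1-/- replicate 2. Clusters Aa, Ca and Da had 3 of 4, 4 of 6 and 3 of 4 tested ids higher and none lower, while cluster Ab had hoxa2b higher and hoxa13b lower. HOXA11 (ENSDARG00000007009), which was lower, belongs to Aa or Ab and is counted in neither. Beside these tallies, 36.2% of all genes tested were higher and 35.9% were lower.

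The posterior ids were few in counts and mixed in direction. hoxd9a was the single member of groups 9 to 13 that rose, from 21, 29 and 11 counts to 53, 66 and 71 (log2 change 1.80, SE 0.375, edgeR adjusted p = 0.00398). hoxd10a, of the group that with its mouse homologues patterns lumbar segments and motor neurons, had 5, 19 and 7 counts against 19, 17 and 35 and was not called (log2 change 1.31, SE 0.598, edgeR adjusted p = 0.0833). Without foxn1+/+ replicate 2, its highest control, the value was 2.12 (edgeR adjusted p = 0.0145).

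HOXA11 (ENSDARG00000007009) had 122, 79 and 85 counts in foxn1+/+ and 17, 13 and 7 in foxn1-/-. It fell by 2.74 on the log2 scale (SE 0.363, edgeR adjusted p = 0.000482), and mouse Hoxa11 is known for the middle limb segment and the kidney. The partner id ENSDARG00000104162 had 0, 14 and 0 counts against 1, 0 and 1 and was not tested.

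hoxa13b, of the group that forms digits in mouse and fin ray skeleton in zebrafish, had 22, 27 and 22 counts against 4, 15 and 4 (log2 change -1.46, SE 0.541, edgeR adjusted p = 0.0426). This call was lost in 5 of the 6 fits that left out 1 library, with adjusted p from 0.0533 to 0.130, and held without foxn1-/- replicate 2 (log2 change -2.30). HOXC12 (ENSDARG00000103133), the best counted id of group 12, had 16, 13 and 3 counts against 12, 2 and 9 (log2 change -0.26, edgeR adjusted p = 0.759).

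HOXC13 is of interest because in mouse Hoxc13 acts upstream of Foxn1 in nail and hair. Its ids, neither of which passed the filter, had 1, 6 and 0 counts against 0, 1 and 20 (ENSDARG00000070353), and 2, 2 and 5 against 3, 8 and 0 (ENSDARG00000113877). At this depth no difference could be detected.

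Libraries differed in which Hox ids they held. Of the 23 posterior ids, 11 had their highest normalized level in foxn1+/+ replicate 2 and 7 in foxn1-/- replicate 3. Of the 25 ids of groups 1 to 8, 17 had theirs in foxn1-/- replicate 2. That library had the largest share of neuron marker counts (0.0870%). It also had the largest shares for skeletal muscle (11.1%), Schwann cells (0.249%) and B cells (0.00694%). Among the mutants its shares for connective tissue (1.5%) and for cartilage and bone (0.339%) were the smallest. The other mutant libraries had neuron marker shares of 0.0404 and 0.0666%, and the part of any of these tissues in the Hox levels was not tested. Without replicate 2 of both genotypes, 24 Hox ids were tested and 19 were higher, of which 17 were among the 19 above and hoxc9a and hoxd10a were added. 1 id was lower, since hoxb6b, hoxb8b and hoxa13b then missed the filter and were not tested.

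Summed levels per paralogue group give the same axis with all 48 ids. They add counts without regard to gene length and are given with no test. The anterior sum, groups 1 to 3, was 25.0, 25.4 and 23.2 CPM in the foxn1+/+ libraries and 109, 131 and 80.5 CPM in the mutants, a 4.35-fold ratio of the means. The central sum, groups 4 to 8, was 12.3, 11.2 and 12.2 CPM against 31.2, 57.8 and 35.1 CPM, a 3.47-fold ratio. Neither overlapped between the genotypes. The posterior sum, groups 9 to 13, was 5.19, 9.85 and 4.19 CPM against 5.30, 4.60 and 7.14 CPM and did overlap. Its log2 ratio of -0.17 became 0.28 without foxn1+/+ replicate 2.

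Within the posterior groups the sums did not move together. Group 11 was lower in the mutants, 0.794 ± 0.285 CPM against 3.05 ± 0.695 CPM (SD, n = 3 each), without overlap. HOXA11 (ENSDARG00000007009) held 122 of 137, 79 of 144 and 85 of 93 foxn1+/+ counts of this sum. The other ids of group 11 together overlapped between the genotypes. Group 9 stood at 0.873, 2.63 and 0.507 CPM in foxn1+/+ and 3.09, 2.66 and 3.18 CPM in foxn1-/-, so that foxn1+/+ replicate 2 lay just under the lowest mutant. Per 1e+06 total counts that library, at 3.1, lay above every mutant, at 2.35 to 2.82, and without it the 2.23-fold ratio of the means in CPM was 4.32-fold. Groups 10, 12 and 13 overlapped in CPM, as did the central groups 6 and 8, in which a rising a copy and a falling b copy were added together. Scaled by library size alone, groups 8 and 13 had every mutant lower.

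**Figure D3:**
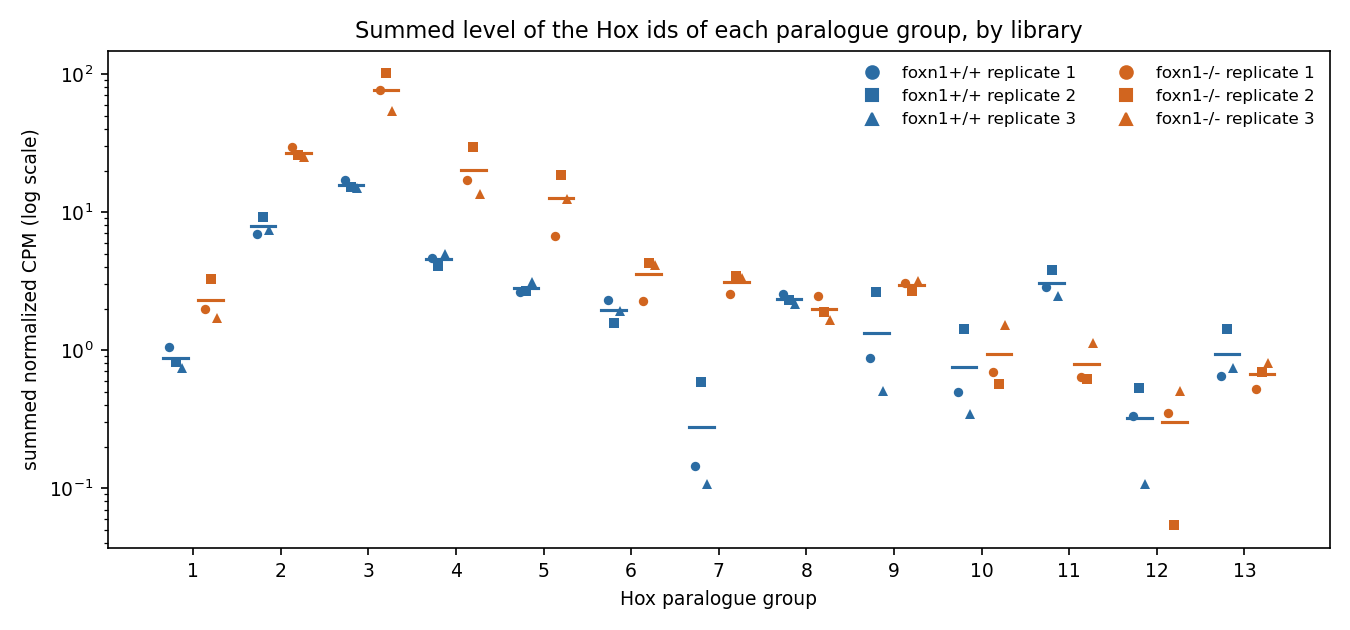
Summed normalized CPM on a log scale (y axis) of the Hox ids of each paralogue group (x axis) in the 6 libraries, with blue for foxn1+/+, orange for foxn1-/-, symbols for replicates and bars for means of 3. The genotypes are apart with the mutants higher in groups 1 to 5 and 7, and in group 9 by the narrow gap of 2.63 to 2.66 CPM that is lost when libraries are scaled by size alone, and apart with the mutants lower in group 11. They overlap in groups 6, 8, 10, 12 and 13, of which 8 and 13 are lower in every mutant by library size alone. In foxn1+/+ most counts of group 11 are those of HOXA11 (ENSDARG00000007009).

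As shares of all Hox counts in a library, anterior ids took 58.8, 54.6 and 58.6% in foxn1+/+ and 74.9, 67.7 and 65.6% in foxn1-/-. Posterior ids took 12.2, 21.2 and 10.6% and then 3.65, 2.38 and 5.82%. The mean paralogue number, weighted by counts, was 4.46, 5.0 and 4.34 in foxn1+/+ and 3.43, 3.53 and 3.78 in foxn1-/-. It was 5.44 ± 0.401 and 4.03 ± 0.228 (SD, n = 3 each) when hoxa3a and hoxb3a, the most abundant ids, were left out. With all 48 ids, all mutant libraries thus had a lower mean number and a larger anterior share than any foxn1+/+ library. This separation includes the falls of HOXA11 (ENSDARG00000007009), hoxb8b and hoxb6b, with 122, 112 and 86 of the 2044 Hox counts in foxn1+/+ replicate 1. Without the counts of these ids both measures overlap between the genotypes, so the separation is not a shift shared by the whole Hox set.

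The Hox levels were also set against the connective tissue markers of the same library, a scale chosen after the data were seen. In every library most of these marker counts came from the type I collagen ids col1a1a, COL1A2 and COL1A1. Per 1000 connective tissue marker counts there were 28.9, 6.89 and 7.23 Hox counts in foxn1+/+ and 6.51, 11.3 and 4.87 in foxn1-/-, so the genotypes overlapped. The anterior ids gave 17.0, 3.76 and 4.24 against 4.88, 7.68 and 3.19, and the central ids 8.37, 1.67 and 2.23 against 1.40, 3.39 and 1.39, again with overlap. The posterior ids gave 3.53, 1.46 and 0.765 against 0.238, 0.270 and 0.283, and here every mutant was lower. In CPM the posterior sums overlapped, with means of 6.41 in foxn1+/+ and 5.68 in foxn1-/-. The markers took 0.170 to 0.793% of counts in foxn1+/+ and 1.5 to 2.23% in foxn1-/-, without overlap. A sum that is level in CPM thus comes out lower in every mutant on this scale. The lower posterior values are no separate result beside the CPM sums. The rise of the anterior and central ids in CPM was therefore not seen on this scale, on which foxn1+/+ replicate 1, with the fewest connective tissue counts, stood highest. The log2 ratios of the means were -0.67 for anterior, -0.99 for central and -0.92 for all Hox ids, and without that library 0.39, 0.0805 and 0.10. The posterior ratio was -2.86, and -2.08 without it.

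**Figure D4:**
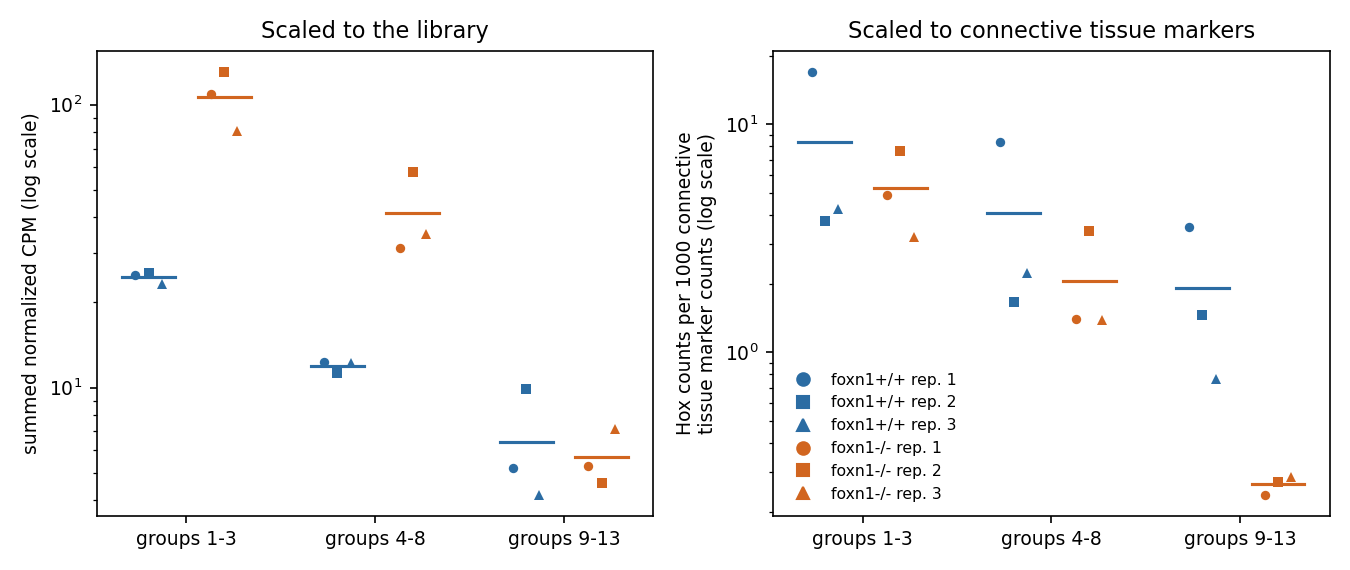
Summed Hox level of groups 1 to 3, 4 to 8 and 9 to 13 (x axis) in the 6 libraries on log scales, as normalized CPM (left) and as Hox counts per 1000 connective tissue marker counts (right), with blue for foxn1+/+, orange for foxn1-/- and bars for means of 3. In CPM the mutants are higher in the first and second class and overlap in the posterior class, while per connective tissue marker the first and second class overlap and the posterior class is lower, 0.238 to 0.283 against 0.765 to 3.53. The marker counts used as divisor are themselves a larger share of counts in every mutant.

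The genes that work with the Hox proteins were read from lists chosen by role. TALE homeodomain proteins of the Pbx, Meis and Pknox families bind DNA together with Hox proteins, and of 14 ids 10 were higher and 2 were lower, with a median log2 change of 1.51, beside 36.2% higher, 35.9% lower and a median of 0.02 over all genes. The largest rise was that of meis2b, from 51, 33 and 59 counts to 153, 463 and 183 (log2 change 2.64, edgeR adjusted p = 0.00223). pbx4, the main Pbx gene of the zebrafish hindbrain and the most abundant of the list, had 5984, 4356 and 4549 counts against 5322, 5424 and 6048. Its small change of 0.36 (edgeR adjusted p = 0.0126) became -0.0476 (edgeR adjusted p = 0.662) when libraries were scaled by their size alone, and it was not called without foxn1+/+ replicate 2 (0.29, edgeR adjusted p = 0.0665).

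Retinoic acid sets the anterior limits of many Hox genes in the embryo. Of 24 tested ids of its pathway 18 were higher and 3 were lower (all genes 36.2% and 35.9%), with a median log2 change of 1.64. The 18 include RARG (ENSDARG00000054003), with 4, 5 and 3 counts against 16, 12 and 20. That id passed the filter only through the mutants, so it had to differ. DHRS3 (ENSDARG00000044982), which returns retinal to retinol, rose from 52, 18 and 53 counts to 649, 807 and 952 (log2 change 4.47, SE 0.365, edgeR adjusted p = 8.1e-05). CYP26B1, an enzyme that degrades retinoic acid and the most abundant of the list, had 2175, 3176 and 2228 counts against 4167, 4951 and 5431 (log2 change 1.08, edgeR adjusted p = 0.00399). The other degrading enzymes differed from it, as CYP26A1 fell from 510, 453 and 380 counts to 31, 89 and 38 (log2 change -2.92, edgeR adjusted p = 0.000459) and CYP26C1 was not called (log2 change -0.20, edgeR adjusted p = 0.363). Both were named after their values were seen.

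Cdx genes act upstream of posterior Hox genes, and the ParaHox genes, to which they belong, are relatives of the Hox genes outside the clusters. Of 6 ids 4 were tested and 2 were higher (all genes 36.2%), among them GSX1, with 8, 1 and 6 counts against 24, 32 and 29 (log2 change 2.67, edgeR adjusted p = 0.00264). The other was pdx1, so no Cdx gene was called. cdx1a was tested (log2 change -0.26, edgeR adjusted p = 0.570). cdx4 and cdx1b, the latter with 6, 4 and 4 counts against 0, 0 and 2, did not pass the filter. pdx1 and the Cdx genes were named after their values were seen. GSX2, a gene of the forebrain and hindbrain, had 14, 1 and 2 counts against 10, 76 and 1 and was not called (edgeR adjusted p = 0.127). Its high value was in foxn1-/- replicate 2, and without foxn1-/- replicate 3 it was called (log2 change 3.19, edgeR adjusted p = 0.0413).

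The chromatin regulators that keep Hox genes on or off moved mostly down. Of 26 ids 19 were lower and 2 were higher (all genes 35.9% and 36.2%), with a median log2 change of -0.90. SUZ12 (ENSDARG00000070256), a core subunit of Polycomb repressive complex 2, fell from 8371, 5620 and 6689 counts to 765, 613 and 710 (log2 change -3.12, SE 0.152, edgeR adjusted p = 2.3e-05). kdm6bb, which removes the mark that complex sets, fell from 25361, 16487 and 19018 counts to 2651, 2996 and 3098 (log2 change -2.61, edgeR adjusted p = 2.2e-05). The 2 ids that rose were ezh1, the other catalytic subunit of that complex beside EZH2, from 408, 321 and 318 counts to 868, 1099 and 929 (log2 change 1.65, edgeR adjusted p = 4.7e-05), and cbx7a, a reader of the mark (log2 change 1.46, edgeR adjusted p = 0.000301). Both were named after their values were seen. The 13 thymocyte markers had a median log2 change of -4.40, and their part in the falls was not tested.

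Genes that flank the Hox clusters were mixed. Of 22 tested ids 5 were higher, 8 were lower and 9 were not called (all genes 36.2% higher and 35.9% lower, so the share of falls was near that of all genes), with a median log2 change of -0.26, and with libraries scaled by size alone 2 were higher and 14 lower. skap1, a T cell adaptor gene that lies next to the HOXB cluster in human, fell from 14440, 8693 and 9393 counts to 657, 584 and 452 (log2 change -4.06, SE 0.211, edgeR adjusted p = 2.4e-05). CBX5, a heterochromatin protein, had 14044, 10625 and 10896 counts against 5014, 4678 and 5441 (log2 change -1.05, edgeR adjusted p = 0.000160).

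Other regulators of position gave a comparison for the anterior Hox genes. Of 30 pharyngeal pouch and arch regulators 23 were higher and 1 was lower (all genes 36.2% and 35.9%), with a median log2 change of 2.05. The 23 include OTX1, otx2a and OTX2, which are not specific to pouches or arches. Among the 6 not called were PAX9 (log2 change 0.24, edgeR adjusted p = 0.422) and foxi1 (log2 change 0.76, edgeR adjusted p = 0.0930), both named after their values were seen. EYA1, needed in mouse for the thymus and other pharyngeal organs and the most abundant of the list, had 1785, 1682 and 1961 counts against 4302, 4867 and 5109 (log2 change 1.55, SE 0.143, edgeR adjusted p = 0.000108). ALX4 (ENSDARG00000088332), a gene of skull and limb mesenchyme, rose from 19, 88 and 33 counts to 484, 337 and 646 (log2 change 3.50, edgeR adjusted p = 0.00192), with 4.38 when foxn1+/+ replicate 2 was left out.

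Of 10 tested genes of the fin and limb field 8 were higher and 2 were lower (all genes 36.2% and 35.9%), with a median log2 change of 1.67. HAND2, which is also the lone gene of the pouch and arch list that fell, had 708, 687 and 789 counts against 121, 143 and 60 (log2 change -2.59, SE 0.335, edgeR adjusted p = 0.000472). and2, which encodes a fibre protein of the larval fin fold, had 73, 51 and 44 counts against 0, 0 and 5. It passed the filter only through foxn1+/+, so it had to differ and is given by its counts, though it is 1 of the 2 counted as lower. and1 of the same list rose, from 97, 90 and 100 counts to 364, 257 and 422 (log2 change 2.03, edgeR adjusted p = 0.000275). It was named after its values were seen.

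**Figure D5:**
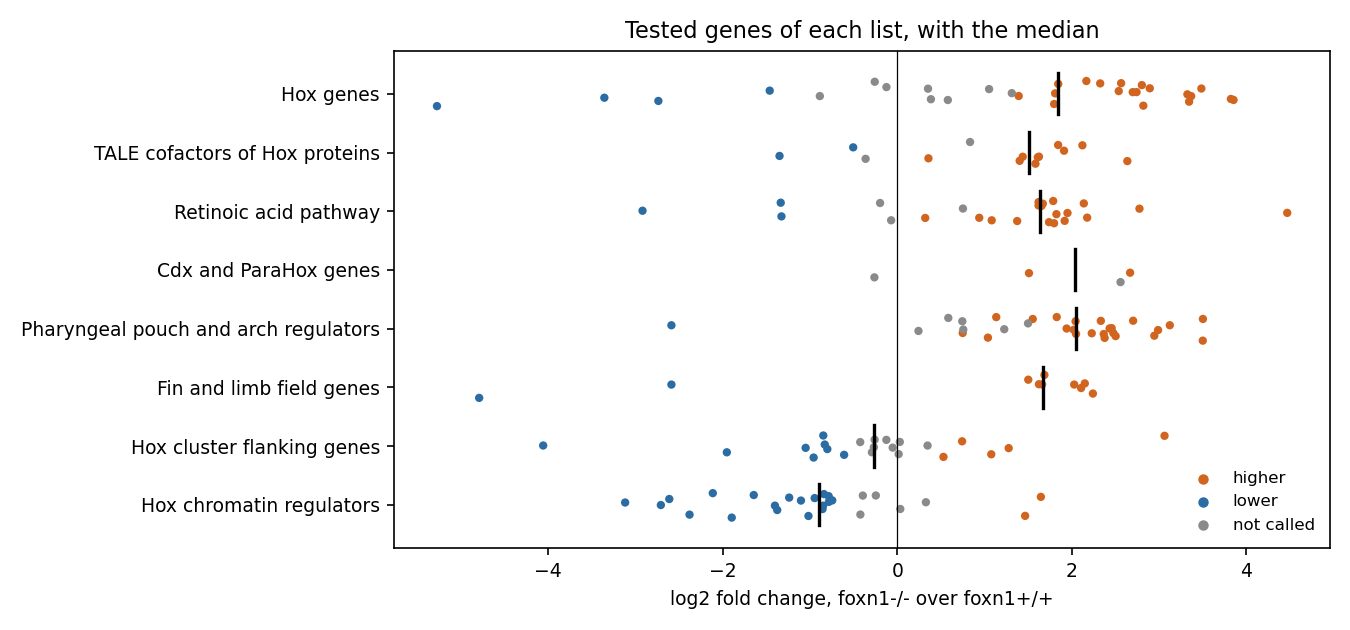
Log2 fold change of foxn1-/- over foxn1+/+ (x axis) for each tested gene of the Hox genes and of 7 companion lists (y axis), coloured by call, with a bar at the median. Medians were 1.84 for the Hox genes, 1.51 for the TALE cofactors, 1.64 for the retinoic acid pathway, 2.05 for pouch and arch regulators, -0.26 for flanking genes and -0.90 for chromatin regulators.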

How the data were processed

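Gene counts were analysed for 6 libraries of adult zebrafish thymus, 3 per genotype. Per the labels, the authors trimmed reads with Trim Galore 0.4.3.1, aligned them to GRCz11 with HISAT2 2.1.0 and deposited raw counts per Ensembl gene from featureCounts 1.6.1.0. The annotation release, the strand setting and the treatment of reads in overlapping genes are not given in the sources used here. Each pair of libraries of a genotype differed beyond sampling noise.

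The filter of the study, over 5 counts in 3 or more of the libraries, kept 23805 of 32520 ids. edgeR 4.0.16 (R 4.3.3) was run with TMM normalization, a robust quasi-likelihood fit and Benjamini-Hochberg adjustment over all tested genes, at a threshold of 0.05. DESeq2 1.42.0 and limma 3.58.1 (voom and treat at a fold change of 1.2, the fit of the study) were alternatives, along with other scalings and filters, a replicate block and leaving out libraries. The fit was tested on simulated data. Normalized CPM is the count divided by the TMM-scaled library size and multiplied by 1e+06. The floor was 3 counts, 0.0623 to 0.0874 CPM.

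Hox members and lists were chosen with earlier results of these data known. Named Hox genes were the most abundant tested id of each paralogue group, the 5 largest called rises and falls and ids at the floor in 1 genotype. For each companion list they were the most abundant and the most changed id. Names came from the tables supplied with the counts, and the RefSeq table, of another assembly, served only for names and neighbours. Sequences and a genome were not used here. Marker lists also covered endothelium (6 of 7 higher), Schwann cells (3 of 6 higher, 1 lower), erythrocytes (6 of 7 higher, 1 lower), myeloid cells (1 of 7 higher, 2 lower) and B cells (5 of 5 higher). Over all genes tested 36.2% were higher and 35.9% were lower.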

Additional observations from a re-analysis of the deposited data

How the results depend on the processing

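The 19 Hox ids called higher and the 4 called lower were the same under DESeq2 size factors, library size alone, DESeq2, voom with treat, and a replicate block. The replicate numbers do not pair the libraries, since the correlations of same-numbered deviations were 0.14, -0.12 and -0.01, and the block left 19 higher and 4 lower. With no filter 19 were higher and 6 lower of 48. With at least 10 counts in every library, 9 ids could be tested, of which 9 were higher and 0 lower, because every id that fell was removed by that filter. Leaving out 1 library gave 17 to 21 higher and 2 to 4 lower, and leaving out replicate 2 of both genotypes gave 19 and 1. hoxb8b was not tested when a foxn1+/+ library was left out, nor hoxc1a and HOXC6 (ENSDARG00000070343) when a mutant was. HOXB5 (ENSDARG00000054030) was called without foxn1-/- replicate 1.

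Library size alone moved the median of all genes from 0.02 to -0.39 and the share of higher calls from 50.2 to 38.4%. It moved the log2 ratio of the anterior sum from 2.12 to 1.71, that of all Hox ids from 1.84 to 1.44, and pbx4 to -0.0476. On it 5 retinoic acid ids were lower, 1 Cdx or ParaHox id was higher, and 2 flanking ids were higher and 14 lower. Per 1000 connective tissue marker counts the ratios were -0.67 (anterior), -0.99 (central), -2.86 (posterior) and -0.92 (all), and without foxn1+/+ replicate 1 on that scale 0.39, 0.0805, -2.08 and 0.10, so the first, second and last sign rest on that library. The posterior sign comes with a divisor that was a larger share of counts in every mutant. The posterior ratio of -0.17 turned to 0.38 without HOXA11 (ENSDARG00000007009) and to 0.41 without replicate 2 of both genotypes, and ranged from -0.40 to 0.28 with 1 library left out, being above 0 without foxn1+/+ replicate 2. Depth limits the posterior ids, of which 14 of 23 did not reach the filter.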
